A study of Homo sapiens with 6 samples.

Results

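The genes compared here are 10 regulators of DNA methylation and of silencing by KRAB zinc finger proteins, chosen by gene symbol from the 30270 genes of the count table. They are the DNA methyltransferases DNMT1, DNMT3A and DNMT3B with the methylation cofactor UHRF1, the 5-methylcytosine dioxygenases TET1, TET2 and TET3, the KRAB corepressor TRIM28, the H3K9 methyltransferase SETDB1 and the H3K27 methyltransferase EZH2. The symbol alone decided which rows of the table were taken. Total RNA of HEK 293T cells, an SV40 T antigen-transformed human embryonic kidney line, was sequenced after rRNA reduction to compare wild-type cells (WT) with a TENT3A/B double knockout, which the study calls ΔTUT4/7 after the uridylyltransferases TUT4 and TUT7. Neither group received a treatment, and both were grown in the same serum-containing DMEM. Each group held 3 biological replicates of 1 line. The knockout line came from another laboratory, and the number of clones behind it is not given in the sources used here. The p-values therefore measure the spread between libraries of 1 line per genotype, and the genotype and the line cannot be told apart.

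DNA methylation at CpG sites is set by DNMT3A and DNMT3B on unmethylated DNA and is copied by DNMT1 after each round of replication, when UHRF1 recognises the half-methylated daughter DNA and brings DNMT1 to it. The TET enzymes oxidise 5-methylcytosine, and the oxidised bases are diluted by replication or cut out by the glycosylase TDG and replaced by base excision repair. KRAB zinc finger proteins, most of which recognise transposable elements, recruit TRIM28 (also called KAP1), which in turn brings SETDB1 and the HP1 proteins to form H3K9-trimethylated heterochromatin. EZH2 is the main catalytic subunit of Polycomb repressive complex 2 (PRC2), which writes H3K27 trimethylation at silenced developmental genes. HEK 293T cells divide rapidly, and DNMT1, UHRF1 and EZH2 are known as genes that dividing cells express.

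The libraries held 18757228 to 33148937 counts. Levels are given as CPM, the share of a library's TMM-scaled total expressed per 1e6 counts, with the SD between the 3 libraries of a group, and changes as log2 fold changes of ΔTUT4/7 relative to WT ± SE from the edgeR quasi-likelihood fit. A gene was called when its adjusted p (FDR) was under 0.05. The targeted genes did not both follow the label. TUT7 fell from 62.6 ± 2.17 to 26.3 ± 1.04 CPM, whereas TUT4 rose from 211 ± 5.08 to 906 ± 21.4 CPM. Counts over a whole gene do not tell an intact transcript from a truncated one, so all directions are those of the libraries labelled ΔTUT4/7 and rest on that label. The 7 kidney and epithelial markers with a row in the table (2 rose and 5 fell) summed to 525 to 563 CPM in WT and 1294 to 1308 CPM in ΔTUT4/7, most of it vimentin (VIM), while CDH1 went from 308 to 4 summed counts and EPCAM from 86 to 0. Of 5 markers of other cell types with a row, 3 were tested (ACTA2, COL1A1 and GFAP). All 3 fell, and together they summed to 45.3 to 55.1 CPM in WT and 9.59 to 11.1 CPM in ΔTUT4/7. The part of these shifts in the results below was not tested, and fewer cells of a type cannot be told apart from less RNA per cell.

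All 10 genes were expressed and passed the count filter. The silencing genes EZH2 (2.02-fold) and TRIM28 (1.99-fold) rose most in ΔTUT4/7, TET2 fell most (1.97-fold lower), and DNMT3B rose by 1.50-fold. UHRF1, TET1 and TET3 rose and DNMT3A and SETDB1 fell by smaller amounts, and DNMT1, the most abundant of the 3 DNA methyltransferases, did not pass the test. In all, 6 genes were called higher and 3 lower. Over all 23952 tested genes, 28.6% were called higher, 29.0% lower and 57.7% in either direction. Among the 15574 genes whose mean count was at least 50, as it was for all 10, 70.9% were called. The number of calls is therefore no result about these genes, and the account below turns on sizes and directions. Counts of called genes in the gene lists below are to be read beside the same shares and are description only. EZH2 was the only one called with a change of at least 2-fold. Of all tested genes 18.3% were both called and changed at least 2-fold, 5.90% upward and 12.4% downward. The groups did not overlap for 9 of the 10 genes, against 62.7% of all tested genes and 74.1% of those whose mean count was at least 50. In the upward direction alone this held for 6 of the 10 and for 30.9% of tested genes. The median log2 fold change of the 10 genes was 0.25, and that of all tested genes was -0.02. Neither the upward share nor this median was taken over the genes whose mean count was at least 50 alone.

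**Figure D1:**
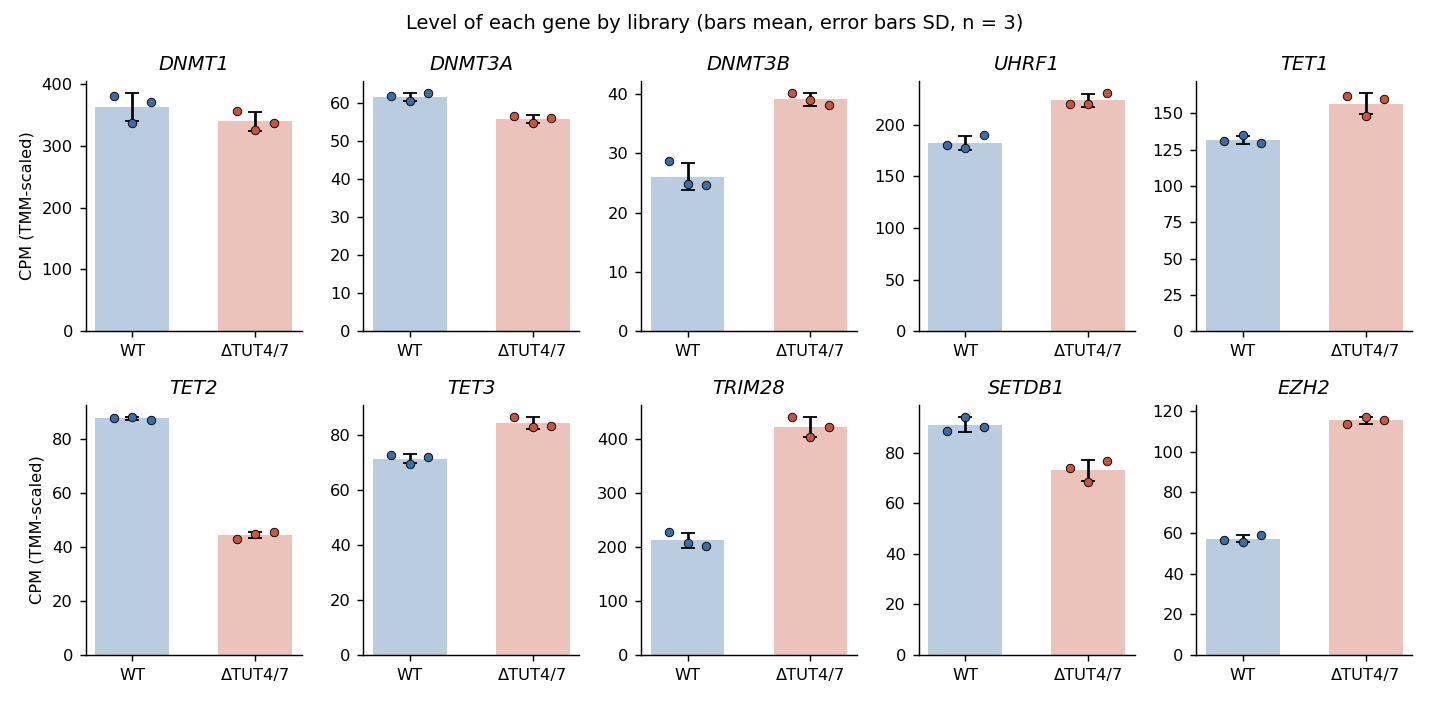
Level of each of the 10 genes in CPM of the TMM-scaled library size (y axis, from 0) in WT (blue) and ΔTUT4/7 (red). Points are the 3 libraries of a group, bars their mean and error bars the SD. The points of the groups overlap for DNMT1 alone, and the largest gaps are those of TET2, TRIM28 and EZH2.

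To show sequence next to some of the genes, the 250 bases upstream of the annotated start of the main transcript were taken from RefSeq (GRCh38.p14). Those of 3 genes are given, 5′ to 3′ on the strand of the gene, because they belong to a gene that rose and carries repeated CCAAT boxes (EZH2), to a gene that rose and carries E2F-type words (UHRF1) and to the gene that fell most (TET2). Capitals mark the words searched on both strands, which were CCAAT (reverse strand ATTGG) and the E2F-type words TTCCCGC (reverse strand GCGGGAA), also TTCGCGC as a close variant, likewise TTGGCGC as another, and finally the variant TTGCCGC. Of these, TTGGCGC can share letters with the reverse CCAAT.
EZH2, chr7:148884292-148884541, minus strand: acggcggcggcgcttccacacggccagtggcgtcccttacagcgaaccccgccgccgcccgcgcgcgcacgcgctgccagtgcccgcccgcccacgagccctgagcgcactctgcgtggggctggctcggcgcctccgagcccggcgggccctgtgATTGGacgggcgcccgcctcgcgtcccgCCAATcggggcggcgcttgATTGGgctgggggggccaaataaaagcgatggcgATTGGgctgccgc
UHRF1, chr19:4909251-4909500, plus strand: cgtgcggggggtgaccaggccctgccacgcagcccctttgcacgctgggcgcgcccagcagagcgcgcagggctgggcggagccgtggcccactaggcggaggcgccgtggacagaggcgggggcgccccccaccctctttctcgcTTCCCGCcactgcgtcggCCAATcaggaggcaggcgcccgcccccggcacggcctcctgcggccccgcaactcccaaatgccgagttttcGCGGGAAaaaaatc
TET2, chr4:105146626-105146875, plus strand: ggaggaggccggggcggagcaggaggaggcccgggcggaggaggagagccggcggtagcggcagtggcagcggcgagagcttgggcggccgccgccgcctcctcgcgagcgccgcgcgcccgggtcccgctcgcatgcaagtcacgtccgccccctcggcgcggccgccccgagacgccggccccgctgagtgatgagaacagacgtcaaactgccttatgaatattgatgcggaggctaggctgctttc
The EZH2 window held 4 CCAAT words, 3 of them on the reverse strand, beginning 94, 66, 47 and 13 bases before the start, and no E2F-type word. Only 2.92% of the 34788 distinct promoter windows held 3 or more CCAAT words. UHRF1 held 2 E2F-type words, beginning 104 and 14 bases before the start, and 1 CCAAT 86 bases before it. Both kinds of word together occurred in 3.58% of all windows. The TET2 window held neither. An E2F-type word was found in 10.9% of all windows and CCAAT in 32.0%. All 3 windows are rich in CpG, with 38 CpG sites for EZH2, 34 for TET2 and 28 for UHRF1 against a median of 11, and EZH2 had more than 96.7% of all windows. Of the remaining genes, TET3 had 1 E2F-type word, 132 bases before the start, and DNMT1, DNMT3A, TET1 and SETDB1 had neither kind. No window was used for DNMT3B and TRIM28. These matches describe letters and not bound sites. The EZH2 and UHRF1 windows were picked for the words they hold, so the rarity of such windows says nothing about the changes in level.

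Among the DNA methyltransferases, the 2 de novo enzymes moved in opposite directions. DNMT3B (chr20:32762385-32809356, hg38, plus strand) methylates CpG sites de novo, with known roles at pericentromeric repeats and gene bodies. It stood at 28.7, 24.9 and 24.7 CPM in WT replicates 1 to 3 and at 40.2, 39.0 and 38.1 CPM in ΔTUT4/7 replicates 1 to 3. The ΔTUT4/7 libraries all lay above the WT libraries, and the WT replicate nearest to them, replicate 1, was set off from the other two. The means were 26.1 ± 2.24 and 39.1 ± 1.05 CPM, and the log2 fold change was 0.59 ± 0.07 (adjusted p = 2.88e-07).

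DNMT3A (chr2:25227855-25342590, minus strand), the de novo enzyme that is prominent in most differentiated tissues, had 61.9, 60.5 and 62.6 CPM in WT and 56.6, 54.8 and 56.1 CPM in ΔTUT4/7. The groups lay apart but close, and the mean fell by 9.39%. Its log2 fold change was -0.14 ± 0.05 (adjusted p = 0.0264 in edgeR), from 61.6 ± 1.06 to 55.9 ± 0.950 CPM. The call was lost in DESeq2 (adjusted p = 0.0532), without WT replicate 3 or any 1 ΔTUT4/7 replicate (0.0503 to 0.0709) and with an offset for GC content and length, where the change shrank to -0.06. Per kilobase of exon, DNMT3A made up 54.2% ± 2.08 of the DNMT3A and DNMT3B sum in WT and 41.6% ± 0.640 in ΔTUT4/7. The difference of -12.5 percentage points had a two-sided exact permutation p of 0.1, the smallest that 3 libraries against 3 allow.

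DNMT1 (chr19:10133342-10231286, minus strand), the maintenance enzyme, had 379.7, 337.0 and 371.4 CPM in WT and 356.3, 325.3 and 336.8 CPM in ΔTUT4/7. The groups overlapped, since WT replicate 2 lay below the highest ΔTUT4/7 library. The means were 363 ± 22.6 and 339 ± 15.7 CPM, and the log2 fold change was -0.09 ± 0.05 with a 95% interval of -0.19 to 0.00 (adjusted p = 0.113). A decrease of this small size was called without WT replicate 2 (-0.14, adjusted p = 0.0133) and with library size alone as the scaling (-0.21, adjusted p = 0.00134). On the same strand, S1PR2, a sphingosine-1-phosphate receptor gene, overlaps the DNMT1 row. It held 1093 WT counts against 27609 for DNMT1, or 3.96%, and fell by 0.91 on the log2 scale, and the split of reads between them is uncertain.

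UHRF1 (chr19:4903080-4962154, plus strand), whose SRA domain binds half-methylated CpG, had 180.0, 177.0 and 190.0 CPM in WT. The ΔTUT4/7 libraries, at 220.3, 219.7 and 230.7 CPM, all lay above them. The log2 fold change was 0.29 ± 0.04 (adjusted p = 8.54e-06), from 182 ± 6.84 to 224 ± 6.16 CPM. Its paralog UHRF2, at 99.9 ± 8.42 and 106 ± 2.38 CPM, did not pass the test (0.09 ± 0.06, adjusted p = 0.180). UHRF1 thus rose while DNMT1, the enzyme it recruits, showed no called increase.

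Around these enzymes, 7 other writers and cofactors of DNA methylation were tested, of which 2 rose, 1 fell and 4 did not pass, with a median log2 fold change of 0.02. USP7, a deubiquitinase known to stabilise DNMT1 and UHRF1, rose from 159.5 ± 5.07 to 262 ± 3.41 CPM (0.71 ± 0.04, adjusted p = 7.41e-12). ZBTB24 and CDCA7, both mutated in a syndrome of immunodeficiency with loss of pericentromeric methylation, moved apart, ZBTB24 upward (0.48 ± 0.06) and CDCA7 downward (-0.25 ± 0.05). HELLS, the remodeller that works with CDCA7, stayed at 470 ± 22.5 and 477 ± 6.91 CPM (0.02 ± 0.04, adjusted p = 0.709). Its neighbours on chromosome 10 had a median of 0.41. UHRF2, TRDMT1 and CDCA7L were the remaining genes that did not pass.

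Of the TET enzymes, TET2 fell while TET1 and TET3 rose. TET2 (chr4:105145875-105279816, plus strand), which lacks the CXXC DNA-binding domain found in the other two, had 87.9, 88.2 and 86.9 CPM in WT and 43.1, 45.0 and 45.4 CPM in ΔTUT4/7. Both groups were tight and lay far apart. The mean was 1.97-fold lower, from 87.6 ± 0.668 to 44.5 ± 1.22 CPM, or -0.98 ± 0.05 on the log2 scale (adjusted p = 8.69e-13). Of all tested genes, 78.7% changed by less. TET2 lies in a stretch of chromosome 4 whose genes were also lower, and with the median change of its neighbours subtracted (defined below) the decrease was -0.48 (adjusted p = 9.03e-08). An antisense transcript, TET2-AS1, held only 21 summed WT counts and 20 summed ΔTUT4/7 counts.

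TET1 (chr10:68560337-68694487, plus strand), known from embryonic stem cells, had 131, 135 and 129 CPM in WT and 162, 148 and 160 CPM in ΔTUT4/7. The lowest ΔTUT4/7 library, replicate 2, still exceeded every WT library. The change was 0.25 ± 0.05 (adjusted p = 9.71e-05), from 132 ± 2.99 to 157 ± 7.40 CPM. Its direction depended on the reference, since the median of its neighbours on chromosome 10 was 0.41. Relative to them the log2 fold change of TET1 was -0.16 (adjusted p = 0.00726). The processed pseudogenes COX20P1 and RPS3AP37, which lie within TET1 on its strand, held 0.329% and 0.558% of its WT count.

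TET3 (chr2:73986404-74108176, plus strand), the TET enzyme known from the fertilised egg, had 73.0, 69.8 and 72.0 CPM in WT and 86.8, 83.0 and 83.5 CPM in ΔTUT4/7. The groups did not overlap. Its log2 fold change was 0.24 ± 0.05 (adjusted p = 0.000295), from 71.6 ± 1.65 to 84.4 ± 2.09 CPM. With library size alone as the scaling, which moved the median of all tested genes from -0.02 to -0.13, the increases were 0.13 for TET3, 0.14 for TET1 and 0.18 for UHRF1, and each still passed the FDR.

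The opposite changes left the summed TET level per kilobase at 24.5 ± 0.255 CPM in WT and 25.5 ± 0.851 CPM in ΔTUT4/7 (two-sided exact permutation p = 0.3). Its composition differed. TET2 supplied 21.7% ± 0.0696 of the sum in WT and 10.6% ± 0.563 in ΔTUT4/7, TET1 55.8% ± 0.750 and 63.8% ± 0.921, and TET3 22.5% ± 0.682 and 25.6% ± 0.574. For each share the libraries of the groups did not overlap, and the two-sided exact permutation p was 0.1, the smallest possible. These are shares of mRNA and not of enzyme activity.

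**Figure D2:**
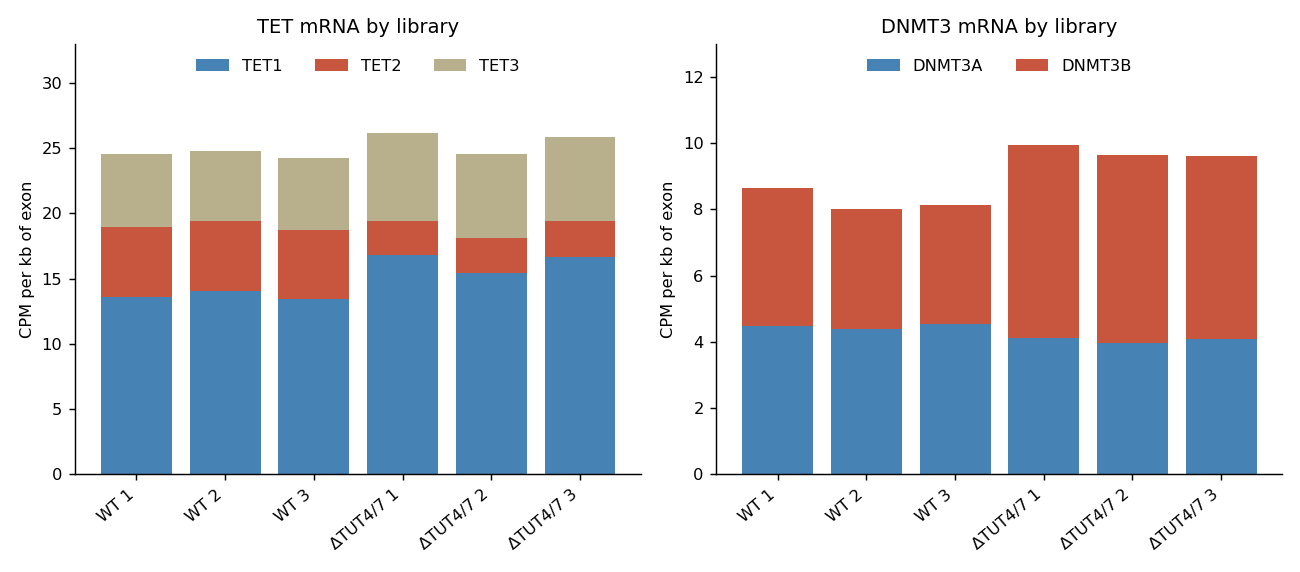
Stacked level per kilobase of exon (y axis, CPM per kb, from 0) of TET1, TET2 and TET3 (left) and of DNMT3A and DNMT3B (right) in each of the 6 libraries (x axis). The TET sum is similar in all libraries while the TET2 segment is much shorter in ΔTUT4/7, and the DNMT3B segment is taller there.

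Of 9 other tested genes of the TET and base excision route, 4 rose, 3 fell and 2 did not pass (median log2 fold change 0.14). Among the glycosylases, TDG rose from 83.9 ± 4.09 to 154 ± 8.26 CPM (0.88 ± 0.05, adjusted p = 4.68e-12). UNG, which removes uracil, rose from 77.2 ± 2.88 to 145 ± 3.29 CPM (0.91 ± 0.05, adjusted p = 7.03e-13). The neighbours of TDG had a median log2 fold change of 0.28 and those of UNG one of 0.46. QSER1, a TET1 partner, rose by 0.19 ± 0.05. CXXC4, which encodes a CXXC protein known to bind TET2 and lies 0.678 Mb from it, fell from 19.8 ± 0.947 to 3.12 ± 0.292 CPM (-2.68 ± 0.11, adjusted p = 2.66e-14), and CXXC5, a relative, fell by 0.62. The stress-induced GADD45 genes split, with GADD45B higher by 1.81 ± 0.13 and GADD45A lower (-0.40 ± 0.10). The glycosylases MBD4 (0.14 ± 0.07) and SMUG1 (-0.01 ± 0.08) did not pass.

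Among 8 tested readers of methylated CpG, 4 rose, 1 fell and 3 did not pass (median 0.21). With library size alone or upper-quartile factors as the scaling, 3 were called lower, and with neighbouring genes subtracted 2 were. The largest increase was in ZBTB33 (Kaiso), from 129 ± 1.14 to 203 ± 7.17 CPM (0.66 ± 0.04), among neighbours with a median of 0.49. MBD3 (0.31 ± 0.06) and MBD1 (0.27 ± 0.06) rose as well. ZBTB4, a zinc finger relative of Kaiso, was 44.8 ± 2.60 CPM in WT and 22.4 ± 1.72 CPM in ΔTUT4/7 (-0.99 ± 0.07, adjusted p = 1.50e-10).

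In the KRAB silencing route, the corepressor rose and its methyltransferase fell. TRIM28 (chr19:58544064-58550722, plus strand), the scaffold that KRAB domains bind, had 227, 208 and 201 CPM in WT and 442, 404 and 422 CPM in ΔTUT4/7. The lowest ΔTUT4/7 library lay well above the highest WT library. The mean was 1.99-fold higher, from 212 ± 13.5 to 423 ± 18.9 CPM, or 1.00 ± 0.05 on the log2 scale (adjusted p = 3.97e-13). Its neighbours at the end of chromosome 19 were higher too, and with their median subtracted the increase was 0.64 (adjusted p = 5.26e-10).

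SETDB1 (chr1:150926263-150964744, plus strand), the enzyme that writes H3K9 trimethylation at TRIM28 targets, had 88.6, 94.4 and 90.5 CPM in WT and 74.1, 68.5 and 76.6 CPM in ΔTUT4/7. Again the groups did not overlap. The log2 fold change was -0.32 ± 0.05 (adjusted p = 2.58e-05), from 91.2 ± 2.94 to 73.1 ± 4.15 CPM. The last part of SETDB1 overlaps CERS2, a ceramide synthase gene on the other strand with 10091 summed WT counts against 6969 for SETDB1. CERS2 did not pass the test (-0.09 ± 0.05, adjusted p = 0.147), and whether counting used the strand is not given in the sources used here, so reads of the shared stretch cannot be assigned with certainty. The paralog SETDB2 fell from 34.4 ± 0.766 to 21.6 ± 1.12 CPM (-0.67 ± 0.07, adjusted p = 4.03e-08), in a region of chromosome 13 whose neighbouring genes had a median of -0.66.

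Of 23 other tested genes of KRAB silencing and heterochromatin, 12 rose, 8 fell and 3 did not pass, with a median of 0.15. The HP1 proteins, which read H3K9 methylation, were split. CBX5 (HP1α) fell from 859 ± 34.0 to 335 ± 8.59 CPM (-1.36 ± 0.04, adjusted p = 3.99e-16), whereas CBX1 (HP1β) and CBX3 (HP1γ) rose by 0.16 ± 0.05 and 0.23 ± 0.05. Of the partners of SETDB1, ATF7IP (-0.24 ± 0.04) and ATF7IP2 (-0.70 ± 0.09) fell, whereas TRIM28 rose (1.00 ± 0.05). Of the other H3K9 methyltransferases, SUV39H2 (0.56 ± 0.05), EHMT2 (0.53 ± 0.06), SUV39H1 (0.28 ± 0.07) and EHMT1 (0.15 ± 0.06) rose, whereas SETDB2 fell (-0.67 ± 0.07). The neighbours of EHMT1 had a median of 0.34, above its own change. Those of SUV39H2 had a median of 0.34, those of EHMT2 0.05 and those of SUV39H1 0.07.

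The HUSH complex, which silences transposons with SETDB1 and MORC2, had members on each side. PPHLN1 (0.52 ± 0.05) and MORC2 (0.38 ± 0.05) rose, MPHOSPH8 fell (-0.59 ± 0.07), and TASOR did not pass (0.07 ± 0.04, adjusted p = 0.198). Their neighbours had medians of 0.02 for PPHLN1, -0.20 for MORC2, -0.29 for MPHOSPH8 and 0.51 for TASOR. ZNF274, a KRAB zinc finger protein known to recruit TRIM28 and SETDB1, rose from 24.0 ± 1.44 to 54.3 ± 4.02 CPM (1.19 ± 0.07, adjusted p = 4.58e-12) and lies 0.361 Mb from TRIM28. The remodellers SMARCAD1 (-0.65 ± 0.05) and ATRX (-0.48 ± 0.04) fell, while DAXX, the histone chaperone that pairs with ATRX, rose (0.54 ± 0.06). The neighbours of SMARCAD1 on chromosome 4 had a median of -0.67, with 12 of 14 called lower, and those of ATRX one of 0.15.

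EZH2 (chr7:148807383-148884321, minus strand) had 56.5, 55.7 and 59.2 CPM in WT and 113, 117 and 115 CPM in ΔTUT4/7. Each group was tight, and the groups lay far apart. The mean rose 2.02-fold, from 57.1 ± 1.83 to 115 ± 1.87 CPM, or 1.01 ± 0.05 on the log2 scale (adjusted p = 2.27e-13), and 79.8% of tested genes changed by less. The neighbouring genes on chromosome 7 had a median of 0.56, and with it subtracted the EZH2 increase was 0.455 (adjusted p = 8.78e-08).

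EZH1, the alternative catalytic subunit that is known for resting cells, moved the other way, from 64.9 ± 2.33 to 35.1 ± 2.16 CPM (-0.89 ± 0.06, adjusted p = 4.89e-11), in a region whose neighbours had a median of 0.04. Per kilobase of all annotated exons, EZH2 made up 36.3% ± 0.388 of the EZH2 and EZH1 sum in WT and 68.1% ± 1.29 in ΔTUT4/7. This share was formed after the values were seen and carries no test. It depends on the length used, here 10774 bases for EZH2 and 6988 for EZH1, whereas their longest transcripts have 4502 and 4633 bases. Without length, the WT means lay closer together, at 57.1 CPM for EZH2 and 64.9 CPM for EZH1. EZH1 was the lower of the pair in ΔTUT4/7 and the higher in WT.

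The rest of PRC2 was mixed. Of 13 other tested genes, 5 rose, 4 fell and 4 did not pass, and their median was -0.00. Of the core subunits, EED rose by 0.35 ± 0.07, SUZ12 stood at 160.0 ± 6.27 and 160.1 ± 7.40 CPM (-0.00 ± 0.05, adjusted p = 0.993), and the histone-binding subunits split, with RBBP4 higher (0.75 ± 0.04) and RBBP7 lower (-0.36 ± 0.05). Of the accessory subunits, EPOP (0.80 ± 0.10), AEBP2 (0.37 ± 0.06) and LCOR (0.19 ± 0.04) rose and PHF19 (-0.52 ± 0.07) and MTF2 (-0.15 ± 0.05) fell. JARID2, PHF1 and EZHIP did not pass.

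Among 15 genes for H3K27 demethylases and PRC1, only some forms of which read the mark EZH2 writes, 5 rose, 4 fell and 6 did not pass (median 0.09). BMI1 (0.69 ± 0.05), PCGF5 (0.79 ± 0.06) and PCGF6 (0.52 ± 0.06), alternative Polycomb ring finger subunits, rose, whereas PCGF3 (-0.34 ± 0.05) and the E3 ligase RING1 (-0.51 ± 0.08) fell. The H3K27me3 readers CBX7 (-0.89 ± 0.12) and CBX2 (0.31 ± 0.06) moved apart. The demethylase KDM6A fell slightly (-0.13 ± 0.05, adjusted p = 0.0342), and KDM6B did not pass (-0.19 ± 0.09).

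**Figure D3:**
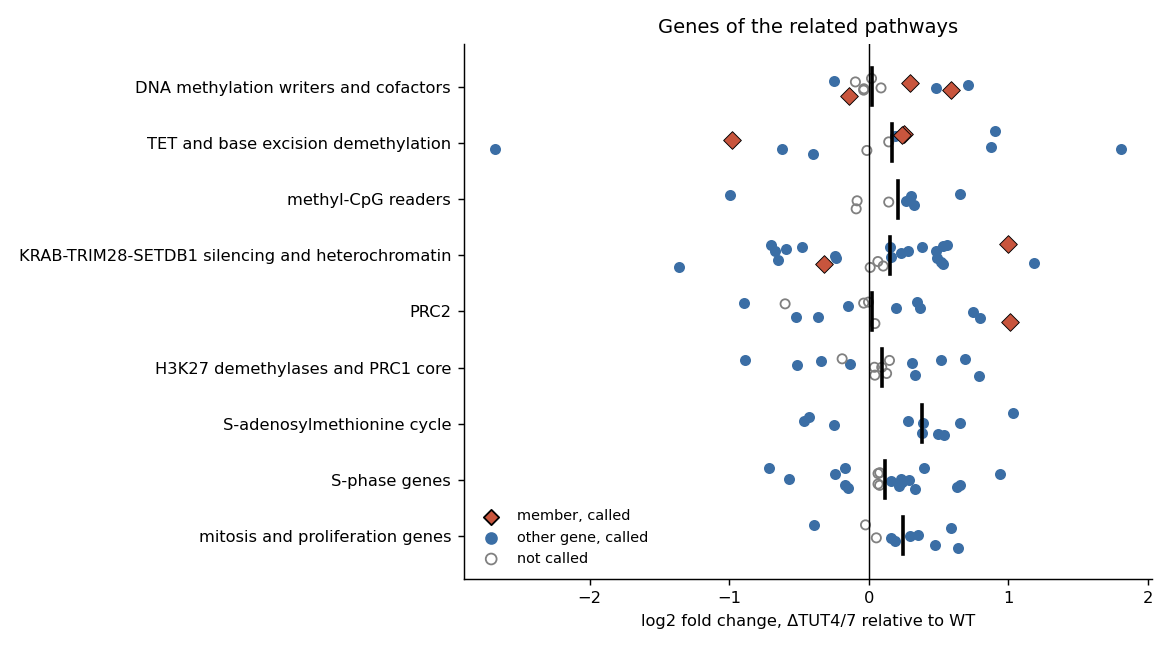
Log2 fold change (x axis, ΔTUT4/7 relative to WT) of each tested gene in 9 gene lists (y axis). Diamonds are called genes of the 10 described here, filled circles other called genes, open circles genes that did not pass FDR 0.05, and the black bar the median of the list. Each list holds genes on both sides of 0, and the medians lie between 0.02 and 0.39.

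DNA and histone methyltransferases draw their methyl groups from S-adenosylmethionine. All 10 tested genes of its cycle were called, 7 higher and 3 lower, with a median of 0.39. Over all tested genes 28.6% were called higher and 29.0% lower. Of those whose mean count was at least 50, 70.9% were called in either direction. MAT2A and MAT2B, which make S-adenosylmethionine, rose by 0.39 ± 0.05 and 0.38 ± 0.05, and AHCY, which clears its by-product, by 0.28 ± 0.05. The largest increase was in MTRR, the methionine synthase reductase, from 34.8 ± 0.223 to 71.2 ± 2.17 CPM (1.03 ± 0.06, adjusted p = 1.05e-12), while methionine synthase itself, MTR, fell (-0.46 ± 0.04). Of the folate enzymes, MTHFD1 (0.54 ± 0.04) and SHMT1 (0.65 ± 0.06) rose and SHMT2 (-0.25 ± 0.06) fell. MTAP rose by 0.49 ± 0.05.

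Germline genes whose promoters are known to be methylated in somatic cells gave little signal. Of 16 listed, 5 had a row and 3 were tested. None rose. STK31 fell from 241 to 4 summed counts (-5.68 ± 0.43, adjusted p = 2.29e-10), SYCP3 stayed at 7.53 ± 0.353 and 7.26 ± 0.526 CPM, and TDRD12 did not pass (-0.73 ± 0.45). With neighbouring genes subtracted, all 3 were called lower. DDX4 went from 10 to 3 summed counts and PIWIL2 from 16 to 9.

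Because DNMT1, UHRF1 and EZH2 are expressed with the cell cycle, S-phase and mitosis genes are set beside them. Of 20 S-phase genes, 10 rose, 6 fell and 4 did not pass (median 0.12). Their summed level was 3468 to 3477 CPM in WT and 3872 to 3920 CPM in ΔTUT4/7. CCNE1 (0.94 ± 0.09), CCNE2 (0.65 ± 0.07) and RRM2 (0.63 ± 0.05) rose, and the licensing factor CDT1 (-0.71 ± 0.06), GINS2 (-0.57 ± 0.06) and E2F1 (-0.24 ± 0.06) fell. Of 10 mitosis and proliferation genes, 7 rose, 1 fell and 2 did not pass (median 0.24), with summed levels of 2139 to 2191 and 2295 to 2354 CPM. AURKA (0.59 ± 0.06), CDC20 (0.64 ± 0.06) and CCNB1 (0.48 ± 0.05) rose and TOP2A (-0.39 ± 0.04) fell. With neighbouring genes subtracted, only 2 of the mitosis genes were called higher and 2 lower. The paper reports that the knockout cells proliferated less than wild-type cells. The higher summed levels are therefore not read as faster division, and their relation to the rate of division was not tested. The shifts of the S-phase and mitosis genes moved with the group, and their part in the changes of UHRF1 and EZH2 was not tested.

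**Figure D4:**
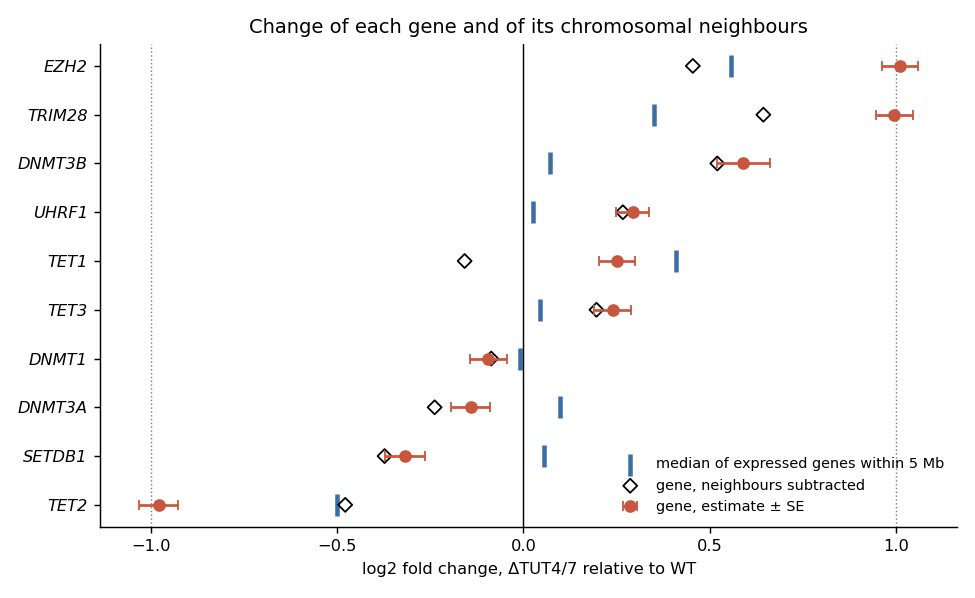
Log2 fold change of each of the 10 genes (x axis, ΔTUT4/7 relative to WT), ordered by size (y axis). Red points are estimates ± SE, blue bars the median change of expressed genes within 5 Mb, open diamonds the estimate with that median subtracted, and dotted lines 2-fold. TET1 is the gene whose diamond lies on the other side of 0 from its point, at -0.16.

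Several of the genes lie in chromosomal stretches whose genes moved together. For each gene, the log2 fold changes of all expressed genes (mean count of 50 or more) within 5 Mb of its start on either side were collected. Around TET2, 27 of 37 neighbours were called lower and 4 higher, with a median of -0.50, and 24.3% of them had a change as low as that of TET2 or lower. Around EZH2, 32 of 50 were called higher and 8 lower. EZH2 stood high in this range, at or above 90.0% of its neighbours. Around TRIM28, 69 of 123 were called higher and 12 lower (median 0.35), and TRIM28 lay at or above 88.6% of them. Around TET1, 40 of 63 were called higher and 6 lower, the median was 0.41, and TET1 lay within the range, at or above 41.3% of its neighbours.

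The other genes had neighbours with no such shift. The medians were 0.07 around DNMT3B (80 neighbours), 0.03 around UHRF1 (203), 0.04 around TET3 (80), 0.10 around DNMT3A (74), 0.05 around SETDB1 (170) and -0.01 around DNMT1 (199). DNMT3B lay at or above 87.5% of its neighbours. With neighbours subtracted, DNMT3B (0.52), UHRF1 (0.27), TET3 (0.20) and SETDB1 (-0.37) kept about the size they had, and DNMT3A went to -0.24. The order of the increases then changed, with DNMT3B above EZH2 (0.455) and below TRIM28 (0.645). Windows of 2 Mb and 10 Mb, chosen after the data were seen, gave 0.38 and 0.60 for EZH2, 0.56 and 0.64 for TRIM28, -0.32 and -0.29 for TET2 and -0.32 and -0.07 for TET1, where the 10 Mb value did not pass (adjusted p = 0.239). What moved these stretches was not tested.

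**Figure D5:**
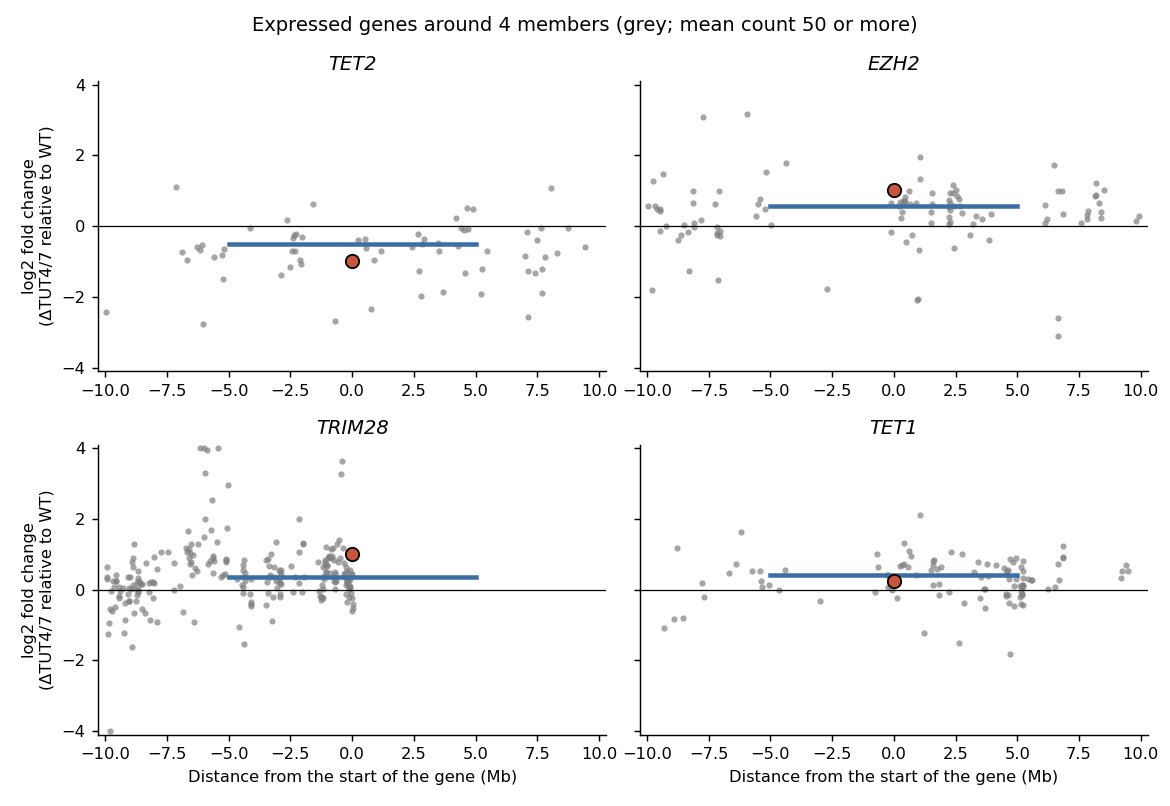
Log2 fold change (y axis) of expressed genes (grey, mean count of 50 or more) against the distance from the start of TET2, EZH2, TRIM28 or TET1 (x axis, Mb, to 10 Mb on either side), with that gene in red and the median within 5 Mb as a blue bar. Values beyond 4 or -4 are drawn at 4 or -4. Most grey points lie below 0 around TET2 and above 0 around the others, and TRIM28 sits near the end of its chromosome.

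Levels were compared between the genes per kilobase of exon, using the summed length of all annotated exons. In WT, TRIM28 led with 49.3 ± 3.13 CPM per kb, followed by UHRF1 (35.4 ± 1.33), DNMT1 (23.6 ± 1.47), TET1 (13.7 ± 0.311) and SETDB1 (12.4 ± 0.398). TET3 (5.53 ± 0.128), TET2 (5.32 ± 0.0405) and EZH2 (5.30 ± 0.170) formed a group in which the libraries of EZH2 overlapped those of both others. DNMT3A (4.47 ± 0.0767) and DNMT3B (3.79 ± 0.326) were lowest. In ΔTUT4/7 the order changed in the lower part, where EZH2 (10.7 ± 0.173) passed SETDB1 (9.91 ± 0.563), DNMT3B (5.68 ± 0.153) passed DNMT3A (4.05 ± 0.0689), and TET2 (2.7 ± 0.0739) became the lowest. At the upper end, TRIM28 reached 98.2 ± 4.38, UHRF1 43.5 ± 1.20 and DNMT1 22.1 ± 1.02 CPM per kb. These ranks depend on which exons are counted, as the longest transcript alone put DNMT1 above UHRF1 and EZH2 above TET2 and TET3 in WT. It also put SETDB1 (20.5) above TET1 (13.7), and TET3 (5.94) below DNMT3B (5.97) and DNMT3A (6.49).

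To see which related genes followed these genes most closely, centred log2 CPM over the 6 libraries were compared with those of 121 other genes of the lists, and the gene with the smallest root-mean-square distance was taken. EZH2 lay nearest to MTRR (0.0275 log2 units), as did TRIM28 (0.0811). TET2 was nearest to EZH1 (0.0665) and SETDB1 to the Polycomb subunit PCGF3 (0.0490). TET3 was nearest to MCM2 (0.0214) and TET1 to RRM1 (0.0437), both S-phase genes, and DNMT3A (0.0255) and DNMT1 (0.0622) to CDC45, another S-phase gene that fell (-0.17 ± 0.05). DNMT3B was nearest to KRT18 (0.0402), a keratin gene of the epithelial markers. With 2 groups of libraries, such a distance is set largely by the size of the difference between the groups, and it is a description only.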

How the data were processed

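Total RNA of 3 WT and 3 ΔTUT4/7 HEK 293T cultures was sequenced by the authors as 2 × 76 bp pairs, aligned to hg38 with STAR 2.7.3a and quantified in Partek Flow 10.0.22 against Ensembl release 102. The values used are the estimated counts per gene that the authors deposited, made with an expectation-maximisation model. The strand setting is not given in the sources used here. A second deposited table held the authors' own comparison (p-values, fold changes and group means) and was not used.

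Estimated counts were rounded. Genes whose largest count was above 12 were tested (23952 genes, and the others held 0.0962% of counts) with edgeR 4.0.16 in R 4.3.3 (TMM, robust glmQLFit, glmQLFTest, no covariate beside the group). P-values were adjusted over the whole tested table by Benjamini-Hochberg, and those printed come from that fit unless another tool is named. The steps were tested on simulated data. There, 49% of 1.25-fold and 91% of 2-fold changes were called in the right direction. The changed genes had a mean count of at least 50, and 0.0788% of unchanged genes were called. The biological coefficient of variation was 6.44%, log2 CPM correlated across genes at r of 0.986 to 0.989 within groups, and no libraries agreed within sampling noise. Exon lengths came from GENCODE release 44, GC and length values covering 98.7% of tested genes, and promoter windows from RefSeq.

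The 10 genes, the gene lists and the tests were chosen with earlier results of these data known. Beside the 10 genes, TUT4 and TUT7, paralogs, overlapping genes and nearest profiles, up to 3 genes with the smallest p per direction were named in each list. List genes named beyond that rule were chosen after their values were seen. DNMT3L and other list genes without a row were not analysed here, and some genes that the rule names are not reported here. Alternatives were library size, RLE and upper-quartile scaling, DESeq2 1.42.0, limma-voom (limma 3.58.1), 2 other count filters, a replicate block, leaving out single libraries, subtraction of the median change of neighbouring genes, and a GC and length offset (mgcv 1.9.3).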

Additional observations from a re-analysis of the deposited data

How the results depend on the processing

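DNMT3B, UHRF1, TET2, TET3, TRIM28, SETDB1 and EZH2 kept their direction and their call in all 18 alternatives. Their log2 fold changes ran from 0.47 to 0.65 for DNMT3B, from 0.18 to 0.32 for UHRF1, from -1.09 to -0.29 for TET2, from 0.13 to 0.32 for TET3, from 0.56 to 1.04 for TRIM28, from -0.43 to -0.27 for SETDB1 and from 0.38 to 1.16 for EZH2. DNMT1 was called lower with library size alone (-0.21), upper-quartile factors (-0.19), genes of mean count 50 or more (-0.16), neighbours within 2 Mb subtracted (-0.14) and without WT replicate 2, with values of -0.145 to -0.065 when 1 library was left out. The call of DNMT3A was lost in DESeq2 (-0.14) and with the GC and length offset (-0.061), and its values without 1 library ran from -0.16 to -0.13. TET1 reversed with neighbours subtracted, to -0.16 within 5 Mb, -0.32 within 2 Mb and -0.067 within 10 Mb (not called there, adjusted p = 0.239), because the neighbours' median exceeded its own change. The 2 Mb window gave 5 genes called lower in place of 3. For the other changes the cause was not tested.

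Of the 11 writers of DNA methylation, 7 were called higher with the GC and length offset in place of 4. The number of writers called lower, 2, was 4 with library size alone or upper-quartile factors, 1 in DESeq2 or with the GC and length offset, and 1 to 3 when 1 library was left out. STK31, the 1 germline gene called lower, fell under the minimum mean count of 50 and was not tested there. Same-numbered libraries did not deviate together (r of 0.05, -0.01 and -0.02 over 15574 genes), so the numbers are not taken as pairs. With the replicate number as a block DNMT1 was called lower (-0.095, adjusted p = 0.0418), and no other call of the 10 genes changed. Per kilobase of the longest transcript, WT levels were 50.7 CPM for DNMT1, 6.49 for DNMT3A, 5.97 for DNMT3B, 42.3 for UHRF1, 8.62 for TET2, 5.94 for TET3, 63.1 for TRIM28, 20.5 for SETDB1 and 12.7 for EZH2. The shares of DNMT3A and of each TET gene kept their direction without length and without any 1 library. Depth limits these genes little, since the lowest summed count of a group was 1967, that of DNMT3B in WT.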
